A study of Mus musculus with 9 samples.

Results

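Heat shock proteins and folding chaperones were followed across the forebrains of mice given clozapine, haloperidol or no drug. They were taken as every gene with a probe set of exactly 1 platform symbol starting with Hsp (other than Hspg2), Dnaj, Pdia or Cct and a digit, together with Tcp1, Calr, Canx, Hyou1, Ddit3, Xbp1, Atf4 and Hsf1. This gave 66 genes on 92 of the 12488 probe sets of the array, among 8251 genes that had a probe set of 1 symbol. For genes with several probe sets, the one with the highest 9-array average stood for the gene. By textbook location, 40 members act in the cytosol or nucleus, 14 in the endoplasmic reticulum and 6 in mitochondria, 3 are stress transcription factors (Atf4, Ddit3 and Xbp1), and Dnajb13, Dnajc4 and Hspb11 were kept apart. Hsf1 and Hsp90ab1 had no probe set of 1 symbol and were not analysed here. Values are log2 expression values, and those of a group are given in the order of the replicate numbers. A gene entered the tests if its 9-array average was above 3.448, the 40th percentile of all probe sets, and 56 members passed: 33 cytosolic, 11 of the endoplasmic reticulum, 6 mitochondrial, all 3 stress factors and the 3 others.

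The animals were male C57BL mice, an inbred laboratory strain, kept singly and recorded as 4 weeks of age, whether at the start or the end of treatment is not stated. Clozapine, an atypical antipsychotic, was given at 12 mg/kg/day and haloperidol, a typical antipsychotic, at 1.6 mg/kg/day. Both were added to the drinking water for 4 weeks, and the control animals received neither. RNA of 3 animals per treatment was hybridised to Affymetrix U74Av2 arrays, 1 animal per array and without pooling. The titles name the right side of the brain and the tissue entry the left, so the side is unsettled. The labels name no transgene or mutation. The doses of the 2 drugs differ, so a difference between the drugs is also a difference between doses. All 6 measured markers of forebrain neurons, among them Snap25 and Syt1, were past the filter.

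The 9 arrays did not fall apart by treatment. Over the tested probe sets other than the chaperones, they were divided into 3 sets that each held 1 array of every treatment. Only such divisions were compared, and the one with the highest correlation within its sets was kept. The labels do not mention these sets. Arrays of the same set had a median r of 0.9924, a value that the choice of the division favours. Arrays of the same treatment had a median r of 0.9825, and pairs that shared neither had 0.9816. The first set held clozapine 1, haloperidol 3 and control 1, the second clozapine 2, haloperidol 2 and control 3, and the third clozapine 3, haloperidol 1 and control 2. The division was not clear-cut, since the best one had a mean r of 0.9877 and the next best 0.9873. In the second set, which holds control 3, r went down to 0.97, against 0.9894 in the first and 0.9897 in the third. Control 3 stood apart on the first principal component, which held 50% of the variance. It had the largest gap between 3' and 5' control probes, 1.73 log2 against 0.81 to 1.46 on the other arrays.

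Chaperones bind unfolded or newly made proteins and keep them from clumping until they have folded. In the cytosol, Hsp70 proteins work in cycles set by J proteins (the Dnaj genes), which bring clients and start ATP hydrolysis, and by nucleotide exchange factors. Hsp90 takes clients further, and the ring-shaped chaperonin built from the Cct subunits and Tcp1 folds actin and tubulin. In the endoplasmic reticulum, BiP (Hspa5), Grp94 (Hsp90b1), the lectins calnexin and calreticulin, and the protein disulfide isomerases (Pdia genes) fold secreted and membrane proteins such as neuronal receptors. Misfolding in the cytosol is answered by the factor Hsf1, which binds heat shock elements, and misfolding in the endoplasmic reticulum by Xbp1, Atf6 and Atf4, of which the first pair act through the endoplasmic reticulum stress element.

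Stretches of the members' promoters are shown because these elements set some endoplasmic reticulum genes apart from the cytosolic ones by sequence. Promoters of 300 bases, 250 before to 50 after the start of transcription, were given by RefSeq on GRCm38.p6 for 57 of the 66 members. Hsp90aa1, Hspa8 and Hspa9 were among those without a promoter and were not searched. The endoplasmic reticulum stress element was searched as CCAAT, any 9 bases and CCACG, and on the other strand as CGTGG, any 9 bases and ATTGG. It was present in 6 of the 13 endoplasmic reticulum members with a promoter (46.2%), in none of 34 cytosolic members, and in 37 of all 27025 genes (0.137%). In these stretches, which run 5' to 3' along the gene's own strand, the fixed letters of the match are in capitals.
Hspa5: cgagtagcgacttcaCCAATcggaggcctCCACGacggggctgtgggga
Hsp90b1: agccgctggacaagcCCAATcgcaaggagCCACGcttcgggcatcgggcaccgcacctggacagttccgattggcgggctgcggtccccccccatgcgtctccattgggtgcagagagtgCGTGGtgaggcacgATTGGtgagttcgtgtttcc
Calr: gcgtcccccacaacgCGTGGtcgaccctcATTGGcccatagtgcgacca
Canx: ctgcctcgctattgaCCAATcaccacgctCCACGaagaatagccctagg
Pdia6: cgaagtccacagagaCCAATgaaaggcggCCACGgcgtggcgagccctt
Dnajc3: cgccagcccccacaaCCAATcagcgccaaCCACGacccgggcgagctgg
They lie at chr2:34772010-34772058 on the plus strand (Hspa5), chr10:86705518-86705671 on the minus strand (Hsp90b1, with 2 matches), chr8:84847060-84847108 on the minus strand (Calr), chr11:50325785-50325833 on the minus strand (Canx), chr12:17266476-17266524 on the plus strand (Pdia6) and chr14:118937812-118937860 on the plus strand (Dnajc3). All are upstream of the start.

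The heat shock element was searched as GAA, TTC and GAA with any 2 bases between neighbours, and on the other strand as TTC, GAA and TTC spaced likewise. Matches may overlap, and a longer run of such units counts as several. It was found in 2 of 34 cytosolic members with a promoter (Dnajb6 and Hsph1, of which only the first is printed). The count was 2 of 4 for mitochondrial members (Hspd1 and Hspe1), none of 13 for endoplasmic reticulum members, and 179 of 27025 for all genes (0.662%). Hspd1 and Hspe1, which encode Hsp60 and its partner Hsp10, lie head to head and share 1 stretch, printed here from each gene's own strand.
Hspd1: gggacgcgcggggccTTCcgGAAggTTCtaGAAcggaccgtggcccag
Hspe1: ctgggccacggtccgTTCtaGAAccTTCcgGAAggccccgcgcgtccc
Dnajb6: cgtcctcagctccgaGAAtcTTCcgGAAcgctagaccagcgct
The shared stretch is chr1:55088044-55088091, minus strand for Hspd1 and plus strand for Hspe1, and that of Dnajb6 is chr5:29735837-29735879 on the plus strand. A match describes these letters only, and no factor binding was measured.

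No chaperone gene differed between any pair of treatments at an adjusted p under 0.05 (limma, Benjamini-Hochberg over 7453 probe sets), and neither did any other probe set (0% called in each comparison). The plot of every member's difference with its interval shows how closely most members lay to 0. Without adjustment, p was under 0.05 for none of the 56 members between clozapine and control, against 0.939% of all probe sets (0.443% above control, 0.496% below). Between haloperidol and control it was under 0.05 for 1 member, the mitochondrial Dnajc11, against 9.12% of all (2.05% above, 7.07% below). Between clozapine and haloperidol it was under 0.05 for none, against 3.64% of all (2.98% higher with clozapine, 0.657% lower). The 3 arrays of a group lay wholly apart from control in 1 member with clozapine (Dnajc11, below), against 1.27% of all above and 2.16% below. With haloperidol they did in 4, Dnajc3 and Dnajc9 above (2.29% of all) and Hsph1 and Dnajc11 below (19.4% of all). Clozapine lay wholly above haloperidol in Dnajc11, Hspbp1 and Hsph1 (15.2% of all) and wholly below in Cct5, Dnajc21 and Hspa5 (1.96% of all). These shares depended on the level. Among the 2050 probe sets averaging at or above the median member (7.66), which include Hsph1, haloperidol lay wholly below control in 61. In 37 of the 2050 clozapine lay wholly above haloperidol. For the 5403 lower probe sets, which include Dnajc11 and Hspbp1, the counts were 1384 and 1093. Clozapine lay wholly below haloperidol in 77 of the 2050 and 69 of the 5403. The typical standard error of a difference was 0.153 log2, which is not a detection limit. Among the tested members the standard error ran from 0.071 (Tcp1) to 0.70 (Hspa2). Hspa2 differed from control by 0.41 with haloperidol (limma unadjusted p = 0.577). Differences well above 0.153 could therefore also not be told from the spread between animals. In simulated data, 25.4% of changes of 0.5 log2 and 79.1% of changes of 1 log2 were recovered. The simulated arrays were drawn independently, without array sets, and the changes lay in the clozapine group only. Those shares are therefore not a detection limit for the present data. In these whole-tissue samples, fewer cells of a type and less RNA per cell cannot be told apart.

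**Figure D1:**
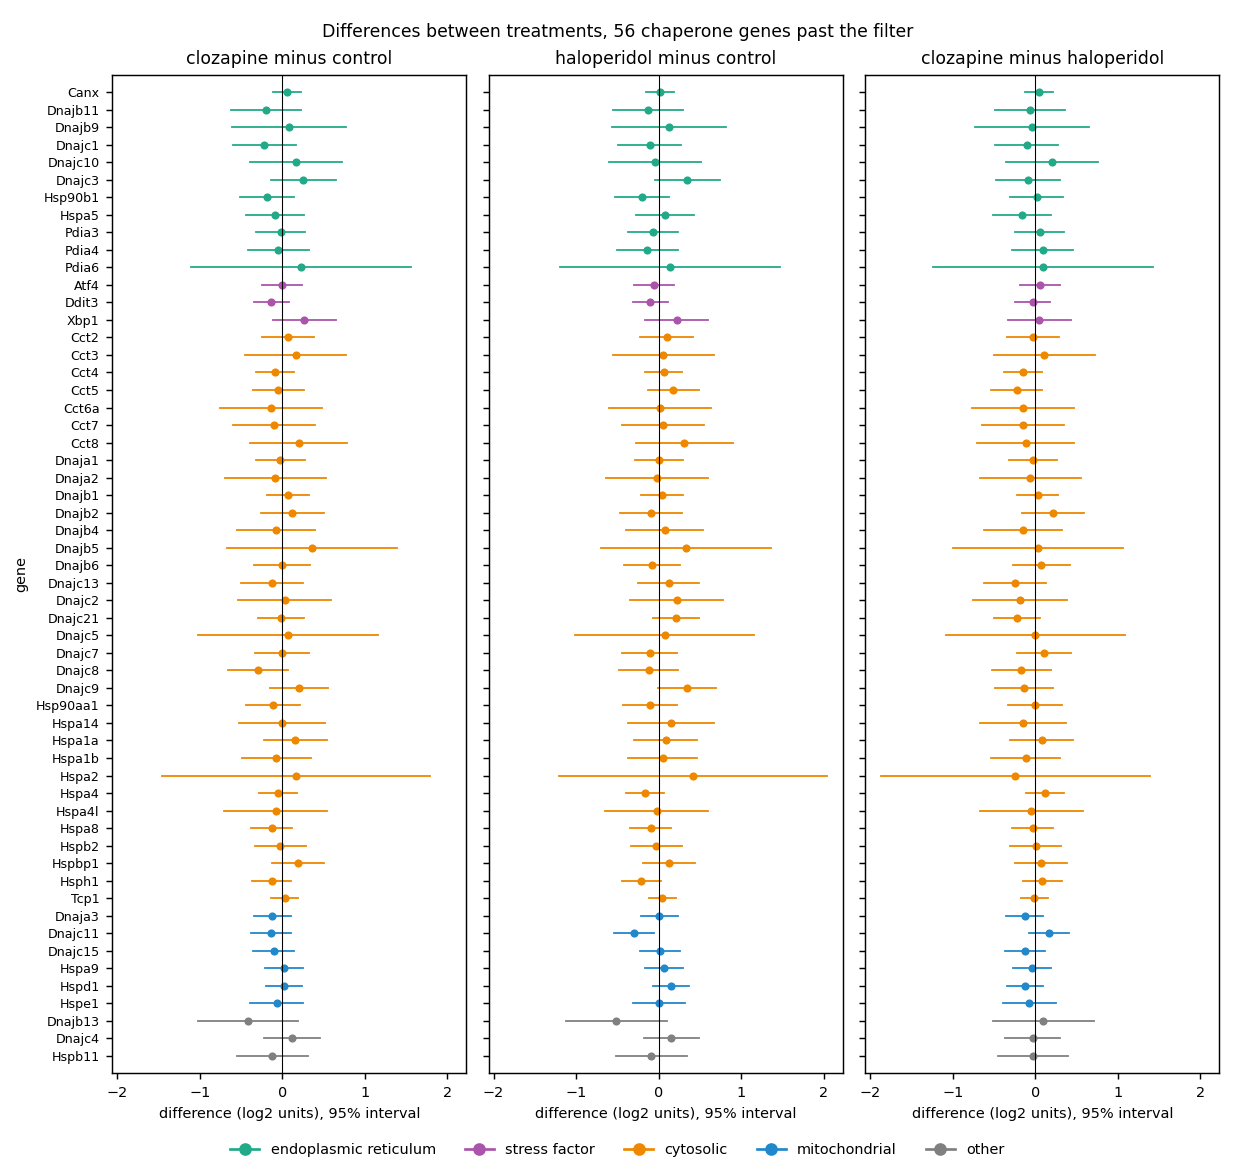
Differences of the log2 means between treatments (horizontal axis) for the 56 tested chaperone genes (rows, grouped by location), 1 panel per comparison, with bars for 95% confidence intervals from limma. Every interval spans 0 except that of Dnajc11 for haloperidol minus control.

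The cytosolic members lay, on the median, 0.017 log2 below control with clozapine (13 above, 20 below) and 0.053 above control with haloperidol (22 above, 11 below). The endoplasmic reticulum members lay 0.018 below with clozapine (5 above, 6 below) and 0.042 below with haloperidol (5 above, 6 below). All tested probe sets had medians of -0.0013 and -0.018, and 49.5% and 46.4% of them were above control. The haloperidol background depended on the level: among the 2050 probe sets with an average at or above that of the median member (7.66), the median was 0.040 and 59.1% lay above control, and among lower ones 41.6% did. Both drugs were compared with the same 3 control animals, so their counts are not independent of each other. Between the drugs, the cytosolic median was -0.029 (clozapine minus haloperidol, 11 above, 22 below) and that of the endoplasmic reticulum 0.016 (6 above, 5 below), beside 0.026 over all probe sets, of which 56.4% were higher with clozapine, and -0.018 and 45.3% among the probe sets at the higher level. The 6 mitochondrial members had medians of -0.087 with clozapine and 0.012 with haloperidol against control. Every one of these medians is smaller than 0.153, the typical standard error of a single gene, though that is not the uncertainty of a median. Between the animals of a group, the compartment medians on single arrays had an SD of 0.025 to 0.073 in the cytosol. In the endoplasmic reticulum the SD was 0.062 to 0.11. Centring the arrays on their medians moved the haloperidol medians to 0.16 in the cytosol and 0.062 in the endoplasmic reticulum, while leaving out control 3 gave 0.0031 and 0.0043.

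The position of each compartment on single arrays shows the spread behind these medians. Each gene was set against its own 9-array mean, and the median over the genes was taken per array. The cytosolic members lay at 0.082, -0.064 and 0.0042 in the untreated animals, at 0.022, 0.018 and -0.098 with clozapine and at -0.013, -0.016 and 0.029 with haloperidol. The endoplasmic reticulum members lay at 0.084, -0.094 and 0.094 in the untreated animals, at -0.069, -0.039 and 0.050 with clozapine and at 0.13, -0.096 and 0.0044 with haloperidol. The 3 treatments overlapped in both compartments, and the untreated animals alone spanned most of the range.

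**Figure D2:**
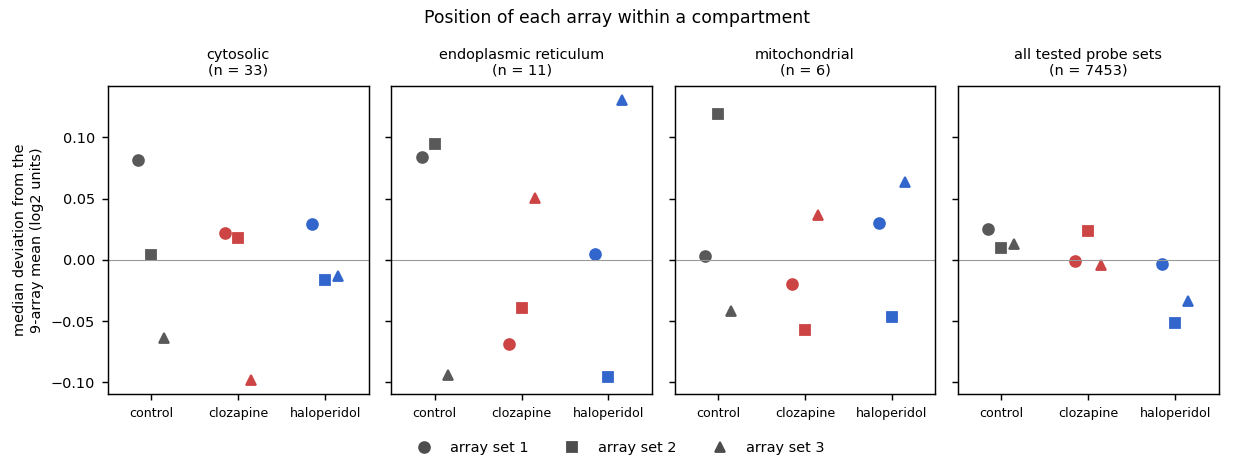
Median deviation of a gene group from its own 9-array mean (log2, vertical axis) on each array, by treatment, for the cytosolic, endoplasmic reticulum and mitochondrial members and all tested probe sets. Treatments overlap in every panel of chaperones, and the endoplasmic reticulum members of the untreated animals lie between -0.094 and 0.094.

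Hspa5, which encodes BiP, the central Hsp70 of the endoplasmic reticulum, had log2 values of 10.88, 10.34 and 10.28 in the untreated animals, 10.42, 10.36 and 10.46 with clozapine and 10.54, 10.60 and 10.59 with haloperidol. Control 1 was the highest of all 9 arrays, and the 3 haloperidol arrays lay above the 3 clozapine arrays without overlap, by 0.16 (95% interval of clozapine minus haloperidol -0.51 to 0.19, limma adjusted p = 0.9998). Against control the differences were -0.088 ± 0.15 (SE) with clozapine and 0.075 ± 0.15 (SE) with haloperidol, and the second was -0.038 without control 3 and 0.27 without control 1.

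Hsp90b1, the Hsp90 of the endoplasmic reticulum, measured 10.75, 10.48 and 10.63 in the untreated animals, 10.45, 10.35 and 10.49 with clozapine and 10.70, 10.17 and 10.38 with haloperidol. The mean was lower with both drugs, with differences of -0.19 ± 0.14 (SE) and -0.20 ± 0.14 (SE) from control, and the ranges overlapped (limma unadjusted p = 0.218 and 0.185, adjusted p = 1 and 0.673). Within the third array set, the haloperidol array lay 0.22 above its control, and in the other sets below. Canx, the membrane lectin calnexin, was nearly flat at 4.38, 4.29 and 4.39 in the untreated animals, 4.46, 4.36 and 4.41 with clozapine and 4.38, 4.33 and 4.38 with haloperidol. Its partner calreticulin (Calr) was under the filter, with values of 2.94, 2.96 and 2.96 in the untreated animals, 2.91, 3.05 and 2.91 with clozapine and 2.85, 2.86 and 2.74 with haloperidol.

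Among the disulfide isomerases, Pdia3 (ERp57, which works with calnexin) measured 9.38, 9.04 and 9.55 in the untreated animals, 9.29, 9.29 and 9.35 with clozapine and 9.17, 9.25 and 9.34 with haloperidol, and its 3 groups overlapped. Pdia4 (ERp72) measured 5.79, 5.29 and 5.25 in the untreated animals, 5.29, 5.32 and 5.57 with clozapine and 5.44, 5.23 and 5.24 with haloperidol, with control 1 the highest. Pdia6 spread far more widely, at 8.62, 7.49 and 6.11 in the untreated animals, 7.95, 7.48 and 7.45 with clozapine and 7.12, 7.30 and 8.19 with haloperidol. Its untreated animals alone ran from 6.11 on control 3 to 8.62 on control 1 and enclosed both drug groups. Of its other probe sets, the one with the next highest average differed by -0.033 with clozapine and 0.13 with haloperidol against control, and the third by -0.14 and -0.044.

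J proteins of the endoplasmic reticulum assist BiP. Dnajc3 (p58IPK), which also restrains the stress kinase PERK, measured 6.26, 5.99 and 6.57 in the untreated animals, 6.41, 6.38 and 6.81 with clozapine and 6.64, 6.66 and 6.57 with haloperidol. All 3 haloperidol arrays were above the 3 untreated ones, narrowly so at 6.57, by 0.35 ± 0.17 (SE) (95% interval -0.041 to 0.74, limma unadjusted p = 0.0730, adjusted p = 0.548), and the clozapine difference was 0.26 ± 0.17 (SE). The other probe sets of the gene did not follow it. A further pair past the filter differed by -0.065 and -0.36 with haloperidol and by -0.018 and -0.28 with clozapine, so the direction for Dnajc3 rests on 1 probe set, and the mean over the gene's probe sets lay below control with both drugs (-0.058 with haloperidol, -0.012 with clozapine).

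Dnajb9 (ERdj4), which aids the removal of misfolded proteins, measured 8.07, 8.40 and 9.32 in the untreated animals, 8.43, 8.64 and 8.95 with clozapine and 8.90, 8.62 and 8.62 with haloperidol. Control 3 was the highest array and control 1 the lowest. Dnajc10 (ERdj5, a reductase) measured 7.23, 7.33 and 7.81 in the untreated animals, 7.47, 7.50 and 7.89 with clozapine and 7.87, 7.03 and 7.35 with haloperidol, and its difference between the drugs of 0.21 ± 0.24 (SE) was among the 4 lowest p-values on the clozapine side (limma adjusted p = 0.9998). Dnajb11 (ERdj3) and the membrane J protein Dnajc1 differed from control by -0.20 and -0.22 with clozapine and by -0.13 and -0.11 with haloperidol, with overlapping ranges.

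The stress factors that act on these genes were measured too. Xbp1 had the lowest unadjusted p of the members above control with clozapine, with values of 8.62, 8.36 and 8.33 in the untreated animals, 8.75, 8.80 and 8.56 with clozapine and 8.30, 8.90 and 8.77 with haloperidol. The difference was 0.27 ± 0.17 (SE) with clozapine (95% interval -0.12 to 0.65, limma unadjusted p = 0.147, adjusted p = 1) and 0.22 ± 0.17 (SE) with haloperidol (unadjusted p = 0.220). Control 1 lay above clozapine 3 and haloperidol 1, so the ranges overlapped. The array reads the whole message, and the spliced form that makes the active Xbp1 was not measured apart. Atf4, which turns on amino acid and redox genes under stress, measured 8.94, 8.93 and 8.81 in the untreated animals, 9.08, 8.86 and 8.74 with clozapine and 8.80, 8.78 and 8.94 with haloperidol. Ddit3 (CHOP), a target of Atf4 linked to cell death, measured 5.50, 5.69 and 5.48 in the untreated animals, 5.47, 5.30 and 5.49 with clozapine and 5.47, 5.40 and 5.50 with haloperidol and differed by -0.13 ± 0.093 (SE) with clozapine and -0.10 ± 0.093 (SE) with haloperidol. Neither Atf4 nor Ddit3 had separate groups.

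**Figure D3:**
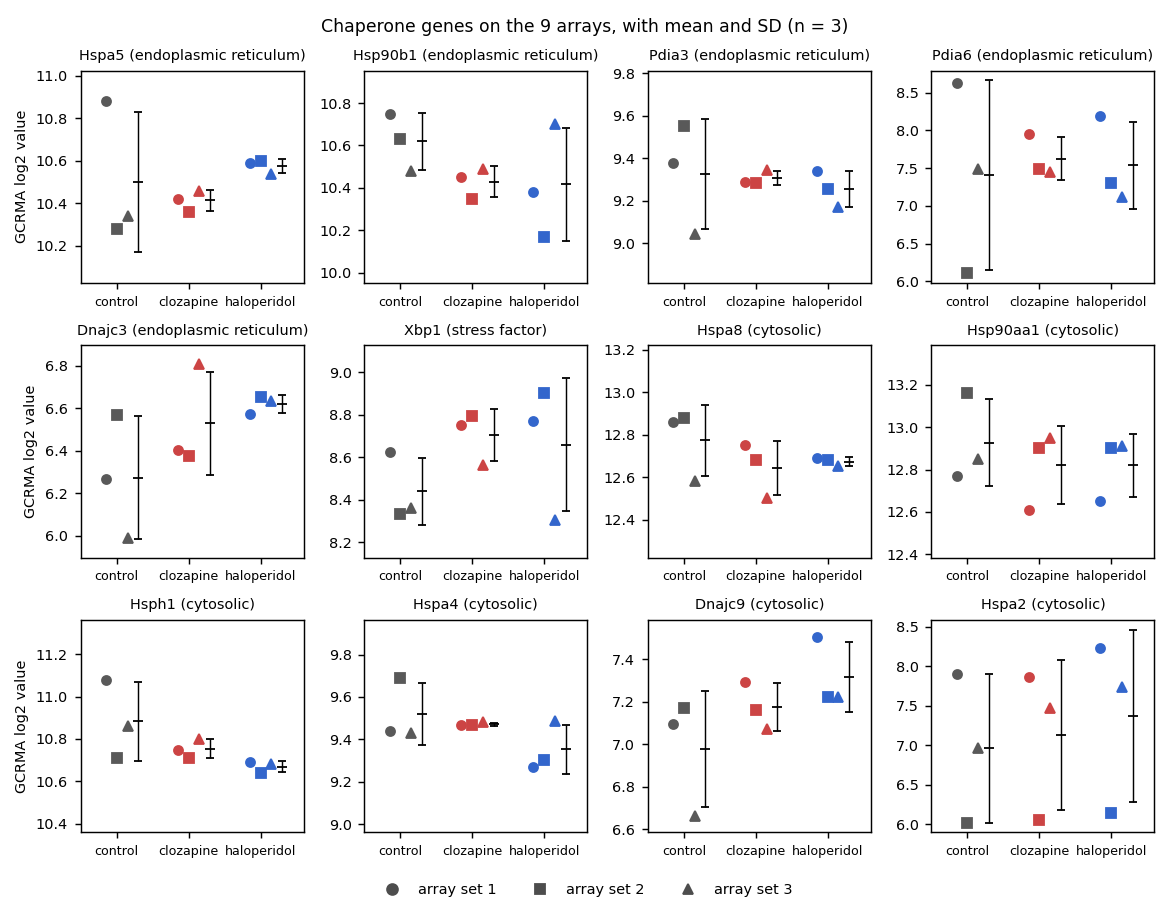
Log2 expression values (vertical axis) of 12 chaperone genes on each of the 9 arrays by treatment, with marker shapes for the 3 array sets and bars for the mean ± SD of 3 animals. The treatments overlap for most genes, and for Pdia6 and Hspa2 the spread among untreated animals exceeds the differences between the group means.

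In the cytosol, Hspa8 (Hsc70), the constitutive Hsp70 that also strips clathrin from synaptic vesicles, measured 12.86, 12.58 and 12.88 in the untreated animals, 12.75, 12.68 and 12.50 with clozapine and 12.65, 12.68 and 12.69 with haloperidol. Its differences from control were -0.13 ± 0.11 (SE) and -0.099 ± 0.11 (SE), and the groups overlapped. Hsp90aa1, an Hsp90 with a near-identical paralog, measured 12.77, 12.85 and 13.16 in the untreated animals, 12.61, 12.90 and 12.95 with clozapine and 12.91, 12.90 and 12.65 with haloperidol. The stress-inducible Hsp70 genes Hspa1a and Hspa1b are nearly identical in sequence, so their probe sets may share transcripts. Hspa1a measured 6.36, 5.67 and 5.85 in the untreated animals, 6.07, 6.09 and 6.20 with clozapine and 6.09, 5.94 and 6.09 with haloperidol. Hspa1b measured 5.64, 5.03 and 5.08 in the untreated animals, 5.15, 5.40 and 4.98 with clozapine and 5.38, 5.16 and 5.34 with haloperidol. Control 1 was the highest array for both, and neither drug group lay apart from control.

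Exchange factors release ADP from Hsp70. Hsph1 (Hsp105), a large relative of Hsp70 with this role, measured 11.08, 10.86 and 10.71 in the untreated animals, 10.75, 10.71 and 10.80 with clozapine and 10.68, 10.64 and 10.69 with haloperidol. All 3 haloperidol arrays lay below all 3 untreated ones, with a difference of -0.21 ± 0.10 (SE) (95% interval -0.45 to 0.022, limma unadjusted p = 0.0694, adjusted p = 0.542), and also below the 3 clozapine arrays. Separation below control was found in 19.4% of all tested probe sets, but the share depended on the level. It was seen in 61 of the 2050 probe sets averaging 7.66 or more, as Hsph1 does (10.77), and in 1384 of the 5403 lower ones. With clozapine the difference was -0.13 ± 0.10 (SE), and the ranges overlapped, with control 3 and clozapine 2 both at 10.71.

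Hspa4 (Apg-2), of the same family, measured 9.44, 9.43 and 9.69 in the untreated animals, 9.47, 9.47 and 9.48 with clozapine and 9.49, 9.30 and 9.27 with haloperidol and differed by -0.17 ± 0.10 (SE) with haloperidol (limma adjusted p = 0.620). Of its 4 other probe sets past the filter, a pair lay above control, by 0.45 and 0.36, and a pair below, at -0.083 and -0.15, and the mean over its probe sets turned the sign, so no direction can be given for Hspa4. Hspbp1, another exchange factor, measured 6.50, 6.48 and 5.99 in the untreated animals, 6.51, 6.56 and 6.47 with clozapine and 6.45, 6.46 and 6.42 with haloperidol. Control 3 was lower than the other 8 arrays, and without it the haloperidol difference of 0.12 became -0.045.

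J proteins of the cytosol divided as follows. Dnaja1 and Dnajb1, general partners of Hsc70 and Hsp70, differed from control by -0.023 and 0.066 with clozapine and by 0.0029 and 0.039 with haloperidol. Their values were 10.94, 10.58 and 10.93 in the untreated animals, 10.78, 10.83 and 10.76 with clozapine and 11.01, 10.68 and 10.76 with haloperidol for Dnaja1, and 6.94, 6.89 and 6.82 in the untreated animals, 6.96, 6.88 and 6.99 with clozapine and 6.90, 6.73 and 7.13 with haloperidol for Dnajb1. Dnajc5, the cysteine string protein of synaptic vesicles, measured 7.50, 6.49 and 5.42 in the untreated animals, 6.94, 6.57 and 6.11 with clozapine and 6.32, 6.50 and 6.81 with haloperidol. Control 1 and control 3 were its highest and lowest arrays, and the haloperidol difference of 0.071 became -0.45 without control 3 and 0.58 without control 1. Dnajb2, a J protein enriched in neurons, measured 8.88, 8.86 and 8.40 in the untreated animals, 8.98, 8.95 and 8.58 with clozapine and 8.53, 8.58 and 8.75 with haloperidol and differed by 0.22 ± 0.16 (SE) between clozapine and haloperidol.

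Dnajc9, a histone chaperone with a J domain, had the lowest unadjusted p above control with haloperidol. It measured 7.10, 6.66 and 7.17 in the untreated animals, 7.30, 7.16 and 7.07 with clozapine and 7.22, 7.22 and 7.51 with haloperidol. The haloperidol arrays lay above the untreated ones without overlap, by 0.34 ± 0.15 (SE) (95% interval -0.010 to 0.69, limma unadjusted p = 0.0555, adjusted p = 0.532), and the difference was 0.18 without control 2, the lowest array. With clozapine it was 0.20 ± 0.15 (SE). Dnajc21, which takes part in ribosome assembly, measured 6.31, 6.05 and 6.48 in the untreated animals, 6.26, 6.33 and 6.20 with clozapine and 6.57, 6.36 and 6.54 with haloperidol, and the clozapine arrays lay wholly below the haloperidol arrays by 0.22 (limma adjusted p = 0.915). Dnajc8, bound to the spliceosome, had the lowest unadjusted p below control with clozapine, at -0.29 ± 0.16 (SE) (limma unadjusted p = 0.0996, adjusted p = 1). Its values were 8.83, 9.14 and 8.58 in the untreated animals, 8.66, 8.34 and 8.67 with clozapine and 8.83, 8.66 and 8.69 with haloperidol, and control 2 was the highest. Dnajc13, an endosomal J protein, measured 6.22, 6.48 and 6.75 in the untreated animals, 6.29, 6.30 and 6.47 with clozapine and 6.87, 6.48 and 6.45 with haloperidol and differed by -0.25 between clozapine and haloperidol, with overlapping ranges.

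The chaperonin was measured through 8 subunits past the filter. With haloperidol all 8 lay above control (median 0.057, range 0.015 to 0.31), none with an unadjusted p under 0.05, where 46.4% of all tested probe sets lay above, and 59.1% of those with an average at or above the median tested member, as 7 of the 8 have. With clozapine 4 of 8 lay above control, and 7 of 8 were lower than with haloperidol. Cct8 had the largest haloperidol difference, 0.31 ± 0.25 (SE) (limma adjusted p = 0.732), with values of 10.14, 9.51 and 9.18 in the untreated animals, 10.10, 9.80 and 9.52 with clozapine and 9.76, 9.86 and 10.14 with haloperidol. Cct5 measured 9.46, 9.06 and 9.51 in the untreated animals, 9.36, 9.28 and 9.25 with clozapine and 9.39, 9.51 and 9.66 with haloperidol, and its clozapine arrays lay below its haloperidol arrays without overlap (difference -0.22 ± 0.13 (SE), limma adjusted p = 0.925). Cct4 measured 9.41, 9.29 and 9.40 in the untreated animals, 9.34, 9.34 and 9.15 with clozapine and 9.32, 9.57 and 9.37 with haloperidol, Cct2 measured 7.75, 7.66 and 7.83 in the untreated animals, 7.78, 7.99 and 7.68 with clozapine and 7.74, 8.12 and 7.67 with haloperidol, and Tcp1 measured 4.27, 4.24 and 4.28 in the untreated animals, 4.29, 4.35 and 4.24 with clozapine and 4.34, 4.25 and 4.32 with haloperidol. The groups overlapped for these 3 subunits in each comparison with control, and 5 of 8 subunits lay above control when haloperidol 2 was left out, 6 when haloperidol 3 or control 3 was. Second probe sets of Cct5 and Cct6a differed by -0.083 and -0.42 with haloperidol, opposite to the chosen ones, and quantile normalization turned Cct6a.

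Mitochondrial chaperones fold imported proteins. Hspd1 (Hsp60) measured 9.82, 9.70 and 9.94 in the untreated animals, 9.91, 9.89 and 9.73 with clozapine and 9.96, 9.91 and 10.03 with haloperidol and differed by 0.14 ± 0.095 (SE) with haloperidol (limma adjusted p = 0.652). Its partner Hspe1 (Hsp10) measured 9.20, 9.09 and 9.42 in the untreated animals, 9.01, 9.17 and 9.33 with clozapine and 9.45, 9.08 and 9.20 with haloperidol. Hspa9 (mortalin), the mitochondrial Hsp70, measured 9.35, 9.42 and 9.14 in the untreated animals, 9.32, 9.24 and 9.39 with clozapine and 9.37, 9.27 and 9.45 with haloperidol. All 3 had overlapping groups in every comparison. The other tested members not described singly were Cct3, Cct6a, Cct7, Hspa14, Hspb2, Dnaja2, Dnajb4, Dnajb5, Dnajb6, Dnajc2 and Dnajc7 in the cytosol, Dnaja3 and Dnajc15 in mitochondria, and Dnajc4 and Hspb11. Their differences from control ran from -0.13 (Cct6a) to 0.36 (Dnajb5) with clozapine and from -0.11 (Dnajc7) to 0.33 (Dnajb5) with haloperidol, and the groups overlapped for each.

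Dnajc11, a J protein of the mitochondrial membranes tied to cristae shape, was the member with the lowest p in any comparison. It measured 4.32, 4.52 and 4.45 in the untreated animals, 4.27, 4.30 and 4.30 with clozapine and 4.24, 4.22 and 3.93 with haloperidol. The group means were 4.43 ± 0.10 (SD, n = 3) without drug, 4.29 ± 0.018 (SD, n = 3) with clozapine and 4.13 ± 0.17 (SD, n = 3) with haloperidol. The haloperidol arrays lay below both other groups without overlap. Such separation was frequent at this level. Among the 5403 probe sets averaging under 7.66, as Dnajc11 does (4.28), haloperidol lay wholly below control in 1384. In 1093 of the 5403 clozapine lay wholly above haloperidol. Haloperidol minus control was -0.30 ± 0.10 (SE) (95% interval -0.54 to -0.061, limma unadjusted p = 0.0200, adjusted p = 0.530), and clozapine minus control -0.14 ± 0.10 (SE) (limma adjusted p = 1). The clozapine arrays also lay wholly below the untreated ones. With arrays centred on their medians the difference was -0.20.

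Under the filter were 10 members, Cct6b, Dnajb3, Dnajb8, Dnajc17, Hspa1l, Hspb1, Hspb8, Calr, Hyou1 and Pdia5. In 9 of them, all but Hspb8, every haloperidol array lay below every untreated one, as in 88.4% of all 4969 probe sets under the filter, so the count is near the background. Hspb1 (Hsp27), a small heat shock protein known from stressed glia, measured 2.97, 3.01 and 2.99 in the untreated animals, 2.96, 3.08 and 2.94 with clozapine and 2.90, 2.90 and 2.77 with haloperidol. Hyou1, the large Hsp70 of the endoplasmic reticulum, measured 3.38, 3.46 and 3.42 in the untreated animals, 3.35, 3.54 and 3.36 with clozapine and 3.27, 3.30 and 3.12 with haloperidol. Median values of the arrays were 4.02 to 4.07 with haloperidol, 4.11 to 4.19 without drug and 4.11 to 4.21 with clozapine, and its part in these low values was not tested. The median deviation of the 6 forebrain neuron markers from their own 9-array means was 0.14 to 0.21 on the haloperidol arrays, -0.13 to 0.11 on the untreated and -0.090 to 0.075 on the clozapine arrays, and single markers ranged more widely. Over the 5 measured oligodendrocyte markers, of which Cnp was under the filter, the median deviation was -0.27 to -0.0087 with haloperidol and -0.022 to 0.15 without drug. For the 5 measured astrocyte markers it was -0.14 to -0.073 with haloperidol, -0.14 to 0.12 without drug and -0.098 to 0.13 with clozapine. For the 3 measured olfactory bulb markers it was -1.08 to 0.71 without drug, -0.92 to 0.79 with clozapine and 0.082 to 0.45 with haloperidol. All 5 measured pituitary genes were highest on haloperidol 3, among them Prl at 11.76, against 3.38 to 3.84 on the other arrays. Without haloperidol 3 the haloperidol difference was -0.20 for Dnajc11, 0.25 for Dnajc9 and 0.37 for Dnajc3. The part of these markers in the chaperone values was not tested.

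Dnajb13, a J protein of cilia and sperm tails, had the largest differences below control, -0.42 ± 0.26 (SE) with clozapine and -0.51 ± 0.26 (SE) with haloperidol (limma adjusted p = 1 and 0.562). Its values were 7.75, 7.82 and 7.57 in the untreated animals, 7.15, 6.93 and 7.80 with clozapine and 7.61, 6.79 and 7.19 with haloperidol. The untreated animals were tight, and 1 array of each drug lay as high as they did. The values come from a probe set whose suffix marks probes chosen under relaxed rules, and its second probe set was under the filter.

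The spread of the chaperones followed the array sets more than the drugs. For the median member, treatment took 11.4% of the variation over the 9 arrays and the array set 43.1%, where an even split over the 8 degrees of freedom gives 25% to each. Over all tested probe sets the shares were 18.4% and 38.1%. The set took more than the treatment in 44 of 56 members (78.6%), beside 64.9% of all probe sets, and the difference between these shares was not tested. In 52 of 56 members (92.9%) the range over the 3 untreated animals was larger than the larger of the drug differences, beside 70.6% of all. Because the sets were chosen as the best-correlated division of these arrays, 25% is no benchmark for their share. The shares are a description.

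**Figure D4:**
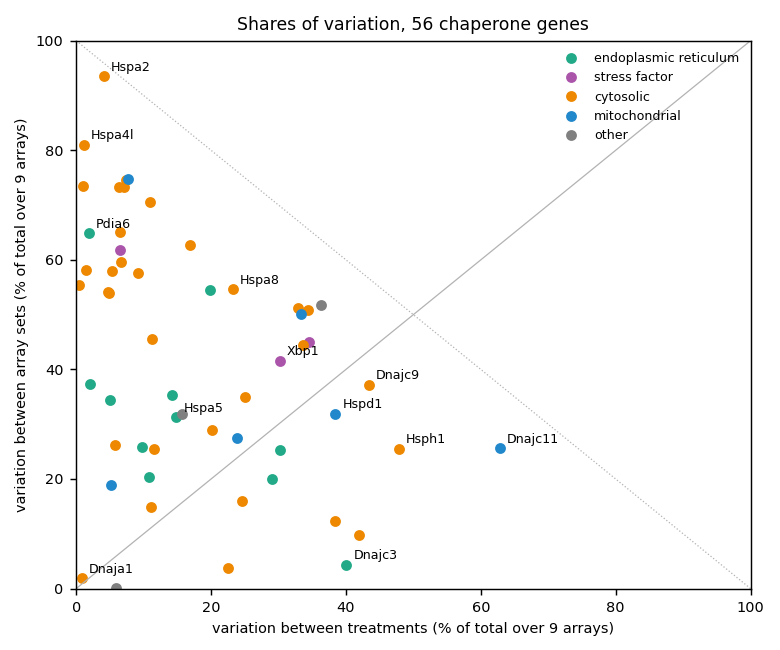
Share of each tested chaperone's variation over the 9 arrays taken by the array set (vertical axis, percent) against the share taken by treatment (horizontal axis, percent), coloured by location. Hspa2 lies at 93.5% for the array set, and Dnajc11 at 62.8% for treatment.

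Hspa2, an Hsp70 best known from male germ cells and also made in brain, varied most with the set. It measured 7.90, 6.96 and 6.02 in the untreated animals, 7.86, 6.06 and 7.47 with clozapine and 7.74, 6.15 and 8.23 with haloperidol. Its means were 8.00 in the first set, 6.08 in the second and 7.39 in the third, so the 3 arrays of a set lay together whatever the treatment, and the set took 93.5% of its variation. Hspa4l, a relative of Hspa4, followed at 81.0%, with set means of 7.06, 6.39 and 6.64. At the other end, treatment took 62.8% for Dnajc11, 47.8% for Hsph1, 43.4% for Dnajc9, 42.0% for Dnajc21 and 40.1% for Dnajc3.

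Within the sets, the endoplasmic reticulum members did not keep a direction. Clozapine minus control had medians of -0.19, -0.27 and 0.28 in the 3 sets, and haloperidol minus control -0.039, -0.26 and 0.17. In the third set, whose untreated animal was control 2, 9 of 11 members were above control with clozapine and 10 of 11 with haloperidol. For the cytosolic members the medians were -0.053, 0.017 and 0.0033 with clozapine and -0.079, 0.080 and 0.058 with haloperidol. Both drug values in a set use its 1 control animal.

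Co-factors of the cytosolic chaperones that the member rule leaves out were listed by function, and 19 of the 30 passed the filter. With haloperidol 15 lay below control and 4 above (median -0.17). Of all tested probe sets 46.4% lay above, of those averaging 7.66 or more 59.1%, and of the lower ones 41.6%. The 19 co-factors lay on both sides of that level. An unadjusted p under 0.05 was found for 4, all below, against 7.07% of all probe sets in that direction. By level, this held for 30 of the 2050 probe sets averaging 7.66 or more, as Stip1 and Fkbp4 do, and for 497 of the 5403 lower ones. The 4 co-factors were Stip1 (Hop), which hands clients from Hsp70 to Hsp90 (-0.36 ± 0.14 (SE)), the Hsp90 immunophilin Fkbp4 (-0.36 ± 0.15 (SE)), the Hsp70 exchange factor Bag3 (-0.57 ± 0.24 (SE)) and Bag6 (-0.35 ± 0.12 (SE)). Their limma adjusted p was 0.530, 0.530, 0.530 and 0.530. Stip1 measured 8.94, 8.96 and 8.94 in the untreated animals, 9.00, 8.91 and 8.75 with clozapine and 8.26, 8.71 and 8.79 with haloperidol. The probe sets of Bag3 and Fkbp4 carry a suffix for probes that may also match related transcripts, and that of Bag6 one for probes chosen under relaxed rules. Leaving out control 3 took the limma unadjusted p above 0.05 for all 4 co-factors, and leaving out haloperidol 3 did so for Bag3, Bag6 and Fkbp4. Other single arrays also did so for each co-factor, for Stip1 any control array, haloperidol 1 or clozapine 2. The differences of Bag3, Bag6 and Fkbp4 without haloperidol 3 were -0.43, -0.26 and -0.22, while that of Stip1 was -0.20 without haloperidol 1. Without control 3 the difference of Bag3 was -0.31. With clozapine 15 also lay below control and 4 above (median -0.086), none at an unadjusted p under 0.05, where 49.5% of all probe sets lay above. Fkbp5, a glucocorticoid-responsive immunophilin, differed by 0.17 ± 0.092 (SE) with clozapine and 0.15 ± 0.092 (SE) with haloperidol.

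Of 41 further folding and stress genes of the endoplasmic reticulum, 29 passed the filter. They lay below control in 20 and above in 9 with each drug, with medians of -0.043 for clozapine and -0.061 for haloperidol. Of all tested probe sets, 49.5% lay above control with clozapine and 46.4% with haloperidol. Herpud1, which serves the disposal of misfolded proteins, was above control with haloperidol by 0.33 ± 0.12 (SE) (limma unadjusted p = 0.0258, adjusted p = 0.530). Derl2, of the same disposal route, was below control, with a difference of -0.82 ± 0.23 (SE) (limma unadjusted p = 0.00807, adjusted p = 0.530). Among all tested probe sets, 2.05% lay above control and 7.07% below at an unadjusted p under 0.05 with haloperidol. Of the 5403 probe sets averaging under 7.66, as Herpud1 and Derl2 do, 78 lay above and 497 below in this way. Herpud1 measured 6.83, 6.35 and 6.59 in the untreated animals, 6.73, 6.63 and 6.70 with clozapine and 6.89, 6.91 and 6.96 with haloperidol. Derl2 measured 5.82, 6.32 and 5.96 in the untreated animals, 5.55, 6.07 and 5.85 with clozapine and 5.37, 5.53 and 4.75 with haloperidol. Its probe set carries the suffix for relaxed probe choice, and without haloperidol 3, the lowest array, the difference was -0.58. That of Herpud1 was 0.21 without control 2. Its limma unadjusted p was above 0.05 when control 2, control 3, haloperidol 2 or haloperidol 3 was left out. The clozapine mean of Derl2 was higher than the haloperidol mean by 0.61 ± 0.23 (SE) (limma adjusted p = 0.915). The sensor genes Eif2ak3 (PERK) and Atf6 differed by 0.13 and -0.045 with haloperidol and by 0.042 and -0.20 with clozapine.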

How the data were processed

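The authors deposited log2 expression values per probe set, for which the submitters' processing notes name GCRMA. That method subtracts a background modelled from probe sequence, makes the arrays alike in distribution and combines the probes of a set, and it leaves unexpressed genes on a narrow floor. A version is not given in the sources used here, nor are the probe set definitions. Arrays were grouped by their titles, 3 per treatment, and p-values measure the spread between these animals. Of 12422 probe sets that are not controls, 10833 had 1 symbol, 396 several and 1193 none. Models with 1 mean per treatment were fitted to 7453 probe sets with lmFit and eBayes in limma 3.58.1 (R 4.3.3), two-sided, with Benjamini-Hochberg adjustment over all of them, after the script was tested on simulated data. Values on every array were given for the core chaperones and, in each comparison, for 4 members on either side of 0 ranked by unadjusted p, and Cct8, Hspa2 and some others outside this rule were chosen after their values were seen. Members, gene lists and rules were chosen with earlier results of these data known. The number of arrays limits the precision. Alternatives covered the filter, scaling, variance model, blocks, probe set choice and single arrays.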

Additional observations from a re-analysis of the deposited data

How the results depend on the processing

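No chaperone gene was called under any of the 22 alternatives, and the lowest adjusted p of a named gene was 0.226, with array weights. Of 108 named differences, 38 kept their sign under all alternatives. Centring the arrays on their medians moved the median haloperidol minus control to 0.16 for cytosolic and 0.062 for endoplasmic reticulum members, and clozapine minus haloperidol to -0.13 and -0.083. That scaling shifted all tested probe sets by 0.10 and -0.099, and the share above among those with unadjusted p under 0.05 went from 22.5% to 72.7% and from 81.9% to 11.5%. With quantile normalization the shares were 31.8% and 43.9%, and for clozapine minus control 32% against 47.1%. When single arrays were left out, the cytosolic median ranged from -0.085 to 0.035 (clozapine minus control) and from -0.11 to 0.0043 (clozapine minus haloperidol), and that of the endoplasmic reticulum from -0.13 to 0.051 (clozapine minus control), the lowest values without control 2, clozapine 1 and control 2. Unadjusted p was under 0.05 for 0 to 4 members with clozapine, 0 to 7 with haloperidol (7 without control 3 or with array weights, 0 without control 2) and 0 to 3 between the drugs. Over all probe sets these counts were 70, 680 and 271. They ranged from 36 (filter at the 60th percentile) to 331 (array weights), from 161 (without control 2) to 1944 (no filter) and from 30 (filter at the 60th percentile) to 2061 (no filter). Replicate numbers do not pair the animals, since deviations of equal numbers correlated between -0.597 and 0.697. With the replicate block, 0 chaperones were called, and the counts over all probe sets became 60, 665 and 333. With the array set as a block, 0 chaperones were called, 2, 4 and 0 members had an unadjusted p under 0.05, and the counts over all probe sets were 203, 1177 and 619.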
